A study of Mus musculus with 4 samples.

Results

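CD8+ T cells of mouse blood are described here from a single-cell RNA sequencing experiment on peripheral blood mononuclear cells (PBMC). They are the 600 cells, of 5794 in all, that the deposited annotation names CD8+ T cells. Treated mice 1 and 2 gave 112 and 200 of them, and untreated mice 1 and 2 gave 104 and 184. All 4 animals were female wild-type C57BL/6 mice, 3.2 ± 0.3 months old. The treated mice had the skin of the ear exposed to non-thermal plasma (NTP), an ionised argon gas at low temperature, for 10 min under anaesthesia, and the untreated mice were anaesthetised only. Blood was taken 120 min after the exposure in treated mice and 120 min after the onset of anaesthesia in untreated mice. Anaesthesia was shared by all 4 mice, and no mouse without it was analysed here. Its timing differed between the groups and cannot be told apart from treatment. Each mouse is 1 library and the unit of every comparison of treatment. Values of single mice are given throughout in the order treated 1, treated 2, untreated 1, untreated 2.

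CD8+ T cells recognise peptides that MHC class I molecules display, and the CD8 coreceptor binds the same MHC molecule. CD4+ T cells read peptides on MHC class II and give help through molecules such as CD40 ligand. Naive T cells circulate between blood and lymph nodes and hold the transcription factors TCF1 and LEF1 and the homing receptor CCR7. Memory and effector CD8+ T cells can kill and secrete quickly, with granule proteins, the chemokine CCL5 and the receptor chain CD122, the product of Il2rb. Natural killer (NK) cells share much of that machinery but carry no T cell receptor.

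The CD8+ T cells held 729483, 1110933, 661598 and 880008 unique molecular identifiers (UMIs, counts of single RNA molecules). The median cell had 6564.5, 5534, 6232.5 and 4761 UMIs. Cluster 4 of the deposited clustering held 593 of the 600 cells, 5 cells of treated mouse 2 were in cluster 11, and 1 cell of untreated mouse 2 was in each of clusters 7 and 8. 4 cell barcodes occurred in more than 1 library, and 2 CD8+ T cells carried such a barcode.

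The markers matched the label. At least 1 UMI of Cd8a or Cd8b1, the 2 chains of the coreceptor, was found in 576 of 600 cells (96%), by mouse in 97.3%, 96.5%, 99.0% and 92.9%. Cd8a and Cd8b1 were both present in 340 cells, Cd8a alone in 17 and Cd8b1 alone in 219, and Cd4 in 4. Cd3d, part of the CD3 signalling complex, was detected in 95.8% of CD8+ T cells. Cd8b1 was found in 93.2% of CD8+ T cells, 7.65% of CD4+ T cells and 0.351% of B cells. B cells should lack the gene.

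Other labels held cells with the coreceptor as well. Of the 73 cells annotated as NK cells, 57 (78.1%) carried Cd8a or Cd8b1, and Cd3d was detected in 98.6%. Of defining NK genes, Ncr1 was found in 1.37%, Tyrobp in 2.74% and Klre1 in 16.4%, while Klrd1 was found in 76.7%. The 14 listed NK genes summed to 1144, 352, 525 and 682 CPM in these cells, with 12, 5, 9 and 6 genes seen. With nearly all cells carrying Cd3d, they are called annotated NK cells below. Within CD4+ T cells, 47 of 152 cells of cluster 7 (30.9%) carried Cd8a or Cd8b1. In CD8+ T cells the same list summed to 293, 336, 234 and 268 CPM, with 5, 7, 5 and 5 of 14 genes seen. Klrd1 was found in 68% of the 600 cells and the perforin gene Prf1 in 46 cells, while Ncr1 and Klre1, both NK receptor genes, had no UMI.

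RNA of other cells was present at a low level. The summed level of 15 B cell genes was 189, 149, 147 and 167 CPM (counts scaled to a common library size) in CD8+ T cells. The 6 platelet genes summed to 35.6, 1.80, 1.51 and 1.14 CPM and the 6 red cell genes to 50.7, 1.80, 4.53 and 0 CPM, so treated mouse 1 stood apart in both. Their part in the results was not tested.

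Against CD4+ T cells, CD8+ T cells were marked by the coreceptor, by genes of killer lymphocytes and by the lineage factor Runx3. UMIs were summed per mouse and type and scaled to CPM by TMM (trimmed mean of M-values) over the T and NK sums. A gene was counted when the higher type had at least 50 CPM in every mouse, the types did not overlap, and the mean difference within mice was at least 2-fold. Of 2498 genes at that level, 39 were higher in CD8+ T cells (1.56%) and 24 were lower (0.961%). Cells had been clustered and named on these same genes, so the differences are a description with no test. Each is the mean of log2(CPM + 1) in CD8+ minus CD4+ T cells ± SD over the 4 mice.

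Cd8a had 187, 198, 166 and 174 CPM in CD8+ T cells, against 5.08, 6.30, 0.622 and 11.1 CPM in CD4+ T cells (5.07 ± 1.18). Cd8b1 had 718, 685, 638 and 667 CPM in CD8+ T cells, against 30.5, 56.7, 12.4 and 39.0 CPM in CD4+ T cells (4.43 ± 0.85). Neither gene overlapped between the types. In mm10, Cd8b1 lies on the plus strand of chromosome 6 at 71322788 to 71337494 and Cd8a on the same strand at 71373427 to 71379173, with 35932 bases between them.

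Genes of the killing machinery came next. Nkg7, a membrane protein of cytotoxic granules, had 282, 316, 241 and 256 CPM in CD8+ T cells, against 7.85, 16.0, 6.22 and 8.66 CPM in CD4+ T cells (4.76 ± 0.39). Klrd1, which encodes CD94, the partner of the NKG2 receptors, had 287, 329, 217 and 238 CPM in CD8+ T cells, against 24.9, 45.2, 23.7 and 26.0 CPM in CD4+ T cells (3.15 ± 0.26). Both were several-fold higher in every mouse. Ctsw, a cysteine protease of killer lymphocytes, differed by 2.24 ± 0.23. The list of memory and cytotoxic genes had 36 members, of which 9 reached the level. Of these, 5 were higher in CD8+ T cells (Nkg7, Ly6c2, Plac8, Klrd1 and Ctsw). The list median was 2.24 against -0.04 over all 2498 genes. Nkg7 and Klrd1 reached 50 CPM only in CD8+ T cells. The filter thus favoured this direction, and the count and median of the list are a description only.

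Adhesion and surface genes separated the types too. Itgae, the alpha chain of the integrin CD103 that binds E-cadherin, had 62.2, 50.8, 75.4 and 54.7 CPM in CD8+ T cells, against 1.85, 2.29, 1.24 and 1.24 CPM in CD4+ T cells (4.54 ± 0.46). The Ly6 genes split by paralog. Ly6c2 had 133, 270, 205 and 202 CPM in CD8+ T cells, against 12.9, 11.5, 7.47 and 9.89 CPM in CD4+ T cells (4.13 ± 0.60). Ly6c1, its neighbour on chromosome 15, had 4.34, 6.84, 0 and 0 CPM in CD8+ T cells, against 92.8, 102, 101 and 75.4 CPM in CD4+ T cells (-5.20 ± 1.49). The 2 genes are close paralogs, so the split of reads between them is uncertain. Also higher were the adhesion receptor gene Cd226 (1.68 ± 0.12), the surface gene Cd7 (1.57 ± 0.35) and the peptidase gene Dpp4 (1.42 ± 0.23). The gut-homing receptor Ccr9 was under the level in 3 mice, with 33.3, 30.3, 58.4 and 35.3 CPM in CD8+ T cells and 1.38, 4.58, 3.73 and 4.33 CPM in CD4+ T cells.

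Runx3, the factor that silences Cd4 in the CD8 lineage, had 116, 123, 89.2 and 121 CPM in CD8+ T cells, against 24.0, 36.1, 24.3 and 22.9 CPM in CD4+ T cells (2.04 ± 0.29). Its relative Runx1 ran the other way at -1.48 ± 0.18. Of the 29 lineage factors listed, 19 reached the level and these were the only 2 that passed the rule. Further genes among the 20 largest differences were 1700062C10Rik (4.88 ± 1.21), the lipocalin gene Lcn4 (3.92 ± 0.85), Fam241a (2.79 ± 0.13), the interferon-inducible Epsti1 (2.07 ± 0.13), Dnajc15 (1.80 ± 0.10), Glipr2 (1.78 ± 0.23), Tmem108 (1.58 ± 0.19), Gprin3 (1.55 ± 0.15) and Atp8b4 (1.51 ± 0.29).

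Promoter windows of Cd8a and Nkg7 are printed because these genes led the coreceptor and killer groups. They come from RefSeq (GRCm38.p6) and run from 250 bases before to 50 after the start. Capitals mark the RUNX letters TGTGGT or TGCGGT and the T-box letters AGGTGTGA, searched on both strands.
Cd8a, chr6:71373177-71373476, plus strand: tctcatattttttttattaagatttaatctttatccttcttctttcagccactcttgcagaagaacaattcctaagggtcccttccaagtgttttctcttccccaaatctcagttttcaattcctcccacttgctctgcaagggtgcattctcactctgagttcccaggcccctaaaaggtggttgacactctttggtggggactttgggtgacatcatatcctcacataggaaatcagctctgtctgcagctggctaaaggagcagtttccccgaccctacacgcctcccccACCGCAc
Nkg7, chr7:43436888-43437187, plus strand: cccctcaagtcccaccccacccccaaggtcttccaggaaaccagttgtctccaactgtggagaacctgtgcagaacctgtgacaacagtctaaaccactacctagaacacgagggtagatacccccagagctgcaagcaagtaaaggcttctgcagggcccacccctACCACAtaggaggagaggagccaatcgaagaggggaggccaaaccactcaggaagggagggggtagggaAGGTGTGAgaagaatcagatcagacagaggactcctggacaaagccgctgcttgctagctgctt
The Cd8a window held TGCGGT once, read as ACCGCA. The Nkg7 window held TGTGGT once, read as ACCACA, and AGGTGTGA once. Of the 39 genes higher in CD8+ T cells, 31 had a window. TGTGGT was present in 10 of these (32.3%) and in 18.9% of all 27025 genes with a window. TGCGGT was present in 5 (16.1%) and in 7.34%, and AGGTGTGA in 3 (9.68%) and in 1.48%. The larger set takes in all genes with a window and not only those at the level. A match describes letters and not a bound site.

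The lower genes were led by the helper ligand and the other coreceptor. Cd40lg, which encodes CD40 ligand, had no UMI in the CD8+ T cells of any mouse, against 69.2, 59.0, 89.6 and 81.0 CPM in CD4+ T cells. Counted against a floor of 3 UMIs over the group, it was at least 85.6-fold lower in CD8+ T cells. Cd4 had 1.45, 0.978, 1.54 and 1.14 CPM in CD8+ T cells, against 140, 134, 134 and 139 CPM in CD4+ T cells (-5.93 ± 0.17). The sialyltransferase gene St8sia6 had 15.9, 6.84, 13.8 and 7.98 CPM in CD8+ T cells, against 219, 199, 240 and 221 CPM in CD4+ T cells (-4.26 ± 0.48). All 3 were lower in every mouse. The remaining genes among the 10 lowest were Tmem64 (-2.77 ± 0.55), the folate receptor family gene Izumo1r (-2.52 ± 0.54), the T cell receptor adaptor gene Trat1 (-2.34 ± 0.37), the calcium-binding protein gene Tesc (-2.29 ± 0.30), A630023P12Rik (-2.10 ± 0.52) and Nxpe3 (-2.07 ± 0.49). Cd5, an inhibitor of T cell receptor signalling, was also lower (-1.42 ± 0.16).

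**Figure D1:**
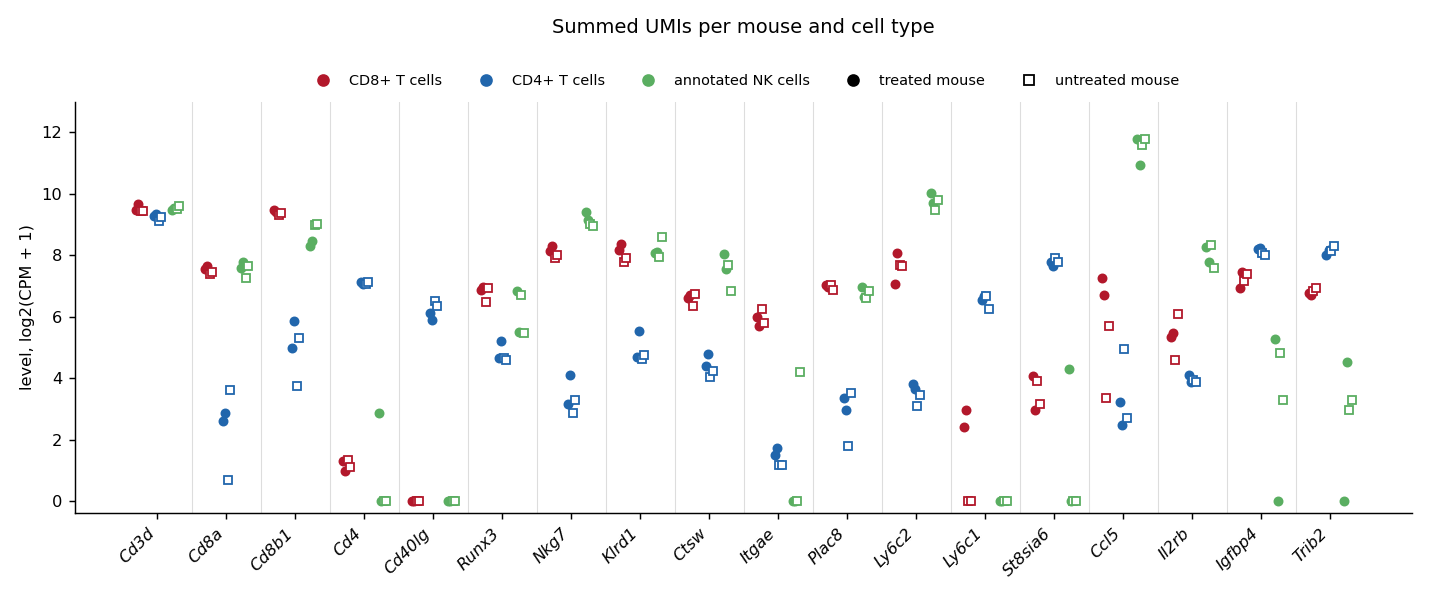
Level of 18 genes as log2(CPM + 1) in CD8+ T cells, CD4+ T cells and annotated NK cells, 1 point per mouse, with treated mice filled and untreated mice open. Nkg7 sat at 241 to 316 CPM in CD8+ T cells and at 6.22 to 16.0 CPM in CD4+ T cells, and Cd40lg was at 0 in all 4 CD8+ sums.

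Annotated NK cells carried the CD8 coreceptor and had higher levels of several memory genes than CD8+ T cells. They rest on 22, 13, 19 and 19 cells, so the level was set at 100 CPM in the higher group. Of 1064 genes, 21 were higher in CD8+ T cells (1.97%) and 8 were lower (0.752%). The split depended on the scaling: with RLE scaling (relative log expression) in place of TMM it was 11 higher and 11 lower. Leaving out treated mouse 1 gave 35 higher genes and leaving out treated mouse 2 gave 32.

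Ccl5, a chemokine that memory T cells store as ready RNA, had 153, 102.7, 9.23 and 51.3 CPM in CD8+ T cells, against 3568, 1948, 3105 and 3563 CPM in annotated NK cells (-5.78 ± 1.84). Il2rb had 39.1, 43.0, 23.1 and 67.2 CPM in CD8+ T cells, against 305, 221, 323 and 191 CPM in annotated NK cells (-2.63 ± 0.95). Both were separated by a wide gap. Ly6c2 (-2.12 ± 0.60), Nkg7 (-1.03 ± 0.18), the interleukin-18 receptor gene Il18r1 (-1.28 ± 0.23), the ubiquitin ligase gene Rnf138 (-1.23 ± 0.31), Peak1 (-1.20 ± 0.54) and the granule trafficking gene Lyst (-1.07 ± 0.41) were the other lower genes. Of 9 memory and cytotoxic genes at the level, 5 were lower in CD8+ T cells and none higher. Ccl5 and Il2rb reached 100 CPM in every mouse only in annotated NK cells, so the filter favoured this direction. Cd8a (-0.07 ± 0.15) and Klrd1 (-0.13 ± 0.41) differed little. Cd8b1 had 718, 685, 638 and 667 CPM in CD8+ T cells, against 318, 354, 501 and 521 CPM in annotated NK cells, apart without overlap but under 2-fold (0.71 ± 0.42).

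Of 17 naive genes at the level, 3 were higher in CD8+ T cells than in annotated NK cells and none lower. Igfbp4, an insulin-like growth factor binding protein of naive T cells, had 120, 175, 141 and 165 CPM in CD8+ T cells, against 37.4, 0, 27.5 and 8.69 CPM in annotated NK cells (3.89 ± 2.60). Outside that list, the pseudokinase gene Trib2 had 109, 104, 114 and 121 CPM in CD8+ T cells, against 0, 22.1, 6.87 and 8.69 CPM in annotated NK cells (4.12 ± 1.92). Ccr7 had 441, 362, 372 and 316 CPM in CD8+ T cells, against 243, 66.4, 199 and 148 CPM in annotated NK cells (1.32 ± 0.75). None of the 3 overlapped. All 3 reached 100 CPM in every mouse only in CD8+ T cells, so the filter favoured this direction. The interferon-inducible Ifi27l2a followed at 1.47 ± 0.23 and the phosphatase gene Dusp10 at 1.44 ± 0.39. Of the 39 genes that set CD8+ T cells above CD4+ T cells, annotated NK cells exceeded CD8+ T cells in 5 (Nkg7, Klk8, Lyst, Ly6c2 and Ctsw), fell below them in 10 and overlapped them in 24.

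Most CD8+ T cells carried naive genes. To compare types at 1 depth, each cell was thinned to 3000 UMIs, which left out 17 shallower CD8+ T cells, 191 CD4+ T cells, 1 annotated NK cell and 1155 B cells. At that depth Lef1 was detected in 93.3% of CD8+ T cells, 95.3% of CD4+ T cells, 83.3% of annotated NK cells and 6.2% of B cells. Tcf7, which encodes TCF1, was detected in 72.9% of CD8+ T cells, 80.5% of CD4+ T cells and 0.5% of B cells. Without thinning, Lef1 was detected in 97.8% of CD8+ T cells and 96.4% of CD4+ T cells, and Tcf7 in 88.5% and 88.9%. Most naive genes at the level did not tell CD8+ from CD4+ T cells. Of 19 members at the level only Itgae passed the rule, beside 39 of all 2498 genes higher (1.56%). Lef1 (-0.11), Tcf7 (-0.40) and Ccr7 (0.30) lay within 2-fold. Ccr9, another member of the list, fell under the level but was higher in CD8+ T cells without overlap, as given above.

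Memory and effector genes were detected in fewer CD8+ T cells, and granule enzymes in very few. These shares cover the CD8+ label alone, and 57 of 73 annotated NK cells also carried Cd8a or Cd8b1. At 3000 UMIs Nkg7 was found in 50.6% of CD8+ T cells, 2.1% of CD4+ T cells and 73.6% of annotated NK cells. Klrd1 was found in 49.7%, 6.5% and 52.8% of the same types, and Ly6c2 in 30.9%, 2.0% and 84.7%. All 3 were far more frequent in CD8+ than in CD4+ T cells. Il2rb was found in 11.1% of CD8+ T cells, by mouse 7.1%, 13.2%, 3.8% and 15.9%, and in 55.6% of annotated NK cells. Ccl5 was found in 6.5% of CD8+ T cells and 86.1% of annotated NK cells. In B cells all 5 genes stayed between 0.15% and 0.86%. Without thinning, Nkg7 was found in 70.0% of CD8+ T cells, Klrd1 in 68%, Ly6c2 in 40.3%, Il2rb in 18.8% and Ccl5 in 9.5%. Granzyme genes were rare among the 600 unthinned cells, with Gzma in 6, Gzmb in 1 and Gzmk in 1. Tbx21, which encodes the effector factor T-bet, was found in 5 cells. Klrg1, a receptor of effector cells, was found in 0 of 600 cells, which allows up to 0.5% of cells with a UMI and sets no limit on cells that express it below detection.

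**Figure D2:**
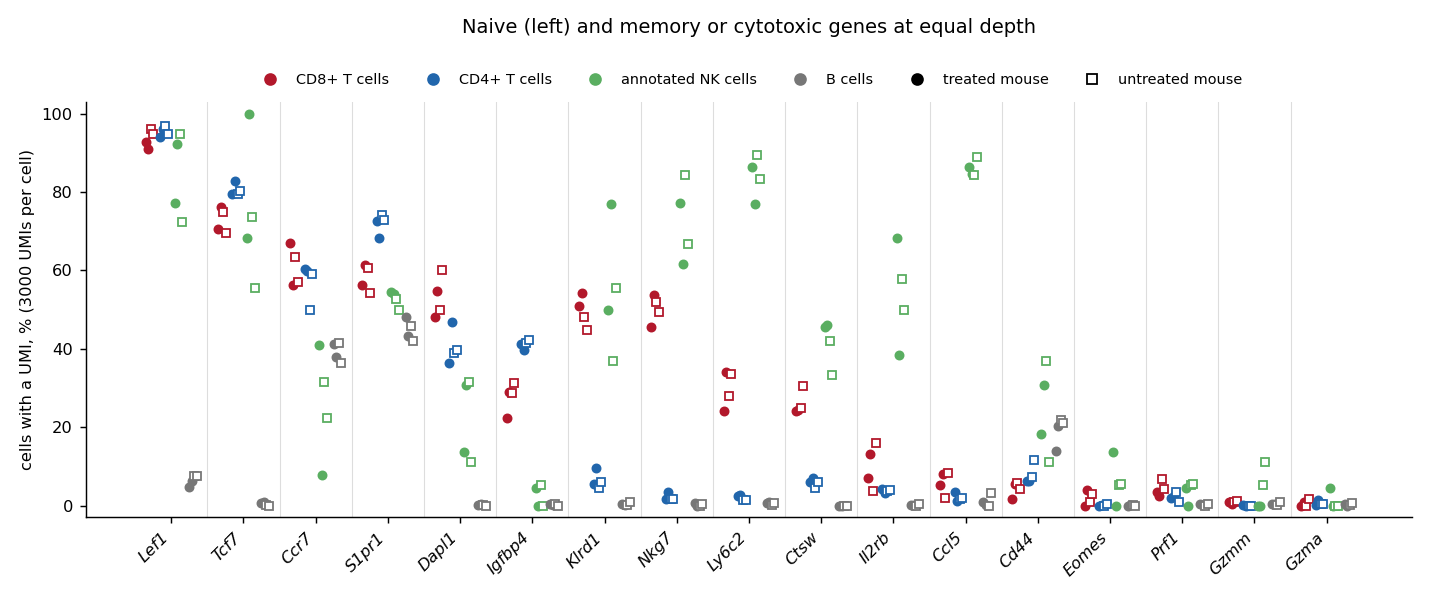
Percent of cells with a UMI after thinning each cell to 3000 UMIs, for naive genes on the left and memory or cytotoxic genes on the right, 1 point per mouse and type, with treated mice filled and untreated mice open. CD8+ T cells lay close to CD4+ T cells in Lef1 (93.3% and 95.3% over all cells) and lay far below annotated NK cells in Ccl5 (6.5% and 86.1%).

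A memory class was defined as cells with UMIs of at least 2 of 12 genes: Ccl5, Cxcr3, Eomes, Il2rb, Tbx21, Klrd1, Klrc1, Gzmk, Gzma, Gzmb, S100a4 and Fasl. It is a range cut from counts and not a cell type, since 323 cells had exactly 1 of the genes and 114 exactly 2. It held 29 of 112 (25.9%, 95% Wilson interval 18.7 to 34.7) and 55 of 200 cells (27.5%, 21.8 to 34.1) in treated mice, against 10 of 104 (9.62%, 5.31 to 16.8) and 47 of 184 cells (25.5%, 19.8 to 32.3) in untreated mice. The intervals cover counting error only. The same class held 2.18% of CD4+ T cells, 93.2% of annotated NK cells and 0.16% of B cells.

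The class share differed by 9.12 percentage points between treated and untreated mice (26.7% ± 1.14 and 17.6% ± 11.3, SD, n = 2 each). The two-sided exact permutation test gave p = 0.33, the smallest that 2 against 2 mice allow, and untreated mouse 1 alone set the gap: without it the difference was 1.15 points. At 3000 UMIs per cell the shares were 5.36% and 14.2% in treated mice, against 1.92% and 14.7% in untreated mice, so the groups overlapped (exact permutation p = 1). Without Klrd1 in the list, 36 of 600 cells stayed in the class, and the shares were 6.25% and 6.50% in treated mice, against 1.92% and 7.61% in untreated mice (exact permutation p = 1).

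**Figure D3:**
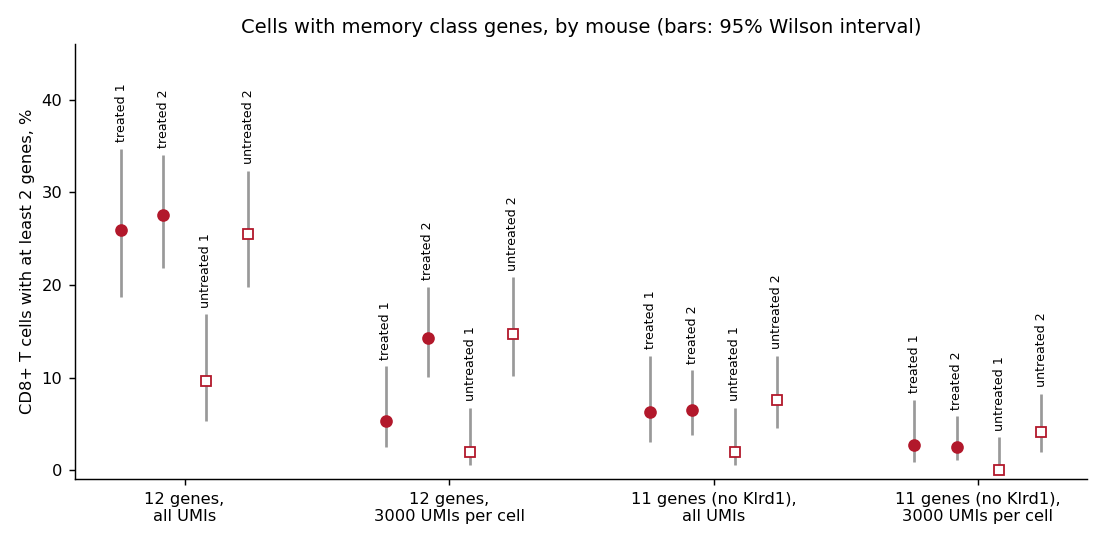
Percent of CD8+ T cells in the memory class by mouse under 4 definitions, with points for mice (treated filled, untreated open) and bars for 95% Wilson intervals. Untreated mouse 1 was lowest under all 4, and the other 3 mice were close together at full depth (25.9%, 27.5% and 25.5%).

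Cells of the class differed from the rest in genes outside its definition. The 61 class cells at 3000 UMIs had 475 CPM of Klf2, a factor that keeps naive T cells circulating, and the other cells had 859 CPM. By mouse Klf2 had 222, 488, 833 and 493 CPM in the class and 1198, 815, 827 and 685 CPM outside it, so it was lower in 3 of 4 mice, and untreated mouse 1, the exception, held only 2 class cells. Tcf7 had 389, 810, 333 and 667 CPM in the class and 412, 450, 487 and 457 CPM outside it, higher in 2 of 4 mice. Cd44, the classical memory marker, had 43.7 CPM in the class and 12.8 CPM outside it, on only 8 class UMIs that came from 2 mice. These are values over pooled cells with no test.

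The spread among single CD8+ T cells was compared gene by gene. Spread was measured by the Fano factor, variance over mean, at 3000 UMIs per cell, and the lowest value over mice was taken. The median of 5722 genes was 0.944, and Cd8b1 (0.97) and Cd8a (0.89) lay near it. The 6 highest were Malat1 (6.99), Gm42418 (6.01), 1700062C10Rik (2.99), Trbc1 (2.67), Tmsb4x (2.63) and Trdc (2.49). Genes picked from further down for their place in the text were Ifi27l2a (1.95, rank 22), Dapl1 (1.95, rank 23), Bcl2 (1.89, rank 25), Ly6c2 (1.82, rank 31) and Igfbp4 (1.62, rank 48). Trbc1 and Trbc2 encode the alternative constant regions of the T cell receptor beta chain, and 18 cells held Trbc1 alone, 232 Trbc2 alone, 349 both and 1 neither. The 2 genes are near-identical, so their reads are uncertain. The delta chain gene Trdc was found in only 8, 6, 2 and 8 cells, with up to 12, 13, 6 and 12 UMIs in a cell.

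Ly6c2 went with Dapl1 and was scarcer beside Itgae. At 3000 UMIs Ly6c2 was detected in 37.0%, 42.6%, 34.6% and 37.3% of cells with Dapl1, against 12.1%, 23.6%, 21.2% and 27.9% of cells without it, higher in 4 of 4 mice. It was detected in 6.67%, 4.76%, 7.14% and 33.3% of the 15, 21, 14 and 24 cells with Itgae, against 26.8%, 37.5%, 31.1% and 33.6% of cells without it. Untreated mouse 2 did not share that pattern. The cells of a mouse share 1 library, and no test was run.

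The share of CD8+ T cells among all cells was 7.35% and 11.7% in treated mice, against 10.5% and 11.7% in untreated mice. The groups overlapped, and the difference of -1.55 percentage points had a two-sided exact permutation p = 1. Among CD8+ and CD4+ T cells together, CD8+ T cells made up 22.1% and 33.8% in treated mice, against 25.7% and 30.0% in untreated mice (exact permutation p = 1). The difference turned to 0.64 points when treated mouse 1 was left out and was 0.09 points over T cells alone. With annotated NK cells that carry Cd8a or Cd8b1 added, it was -2.00 points (exact permutation p = 0.67).

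NTP treatment was compared with anaesthesia alone on the summed UMIs of CD8+ T cells, and no gene passed the test. Levels in this comparison are CPM scaled over the 4 CD8+ sums alone, and fold changes are log2 of treated over untreated ± SE. Each SE, also that of the difference between CD8+ and CD4+ effects, was worked back from edgeR's test statistic. It does not show how far an effect moves when a mouse is left out. edgeR's quasi-likelihood test with Benjamini-Hochberg adjustment called 0 of 6798 genes at 0.05 (0%), with a smallest adjusted p of 0.0784. At an unadjusted p under 0.05, 325 genes were higher (4.78%) and 272 lower (4%) in treated mice. After adjustment, limma-voom and DESeq2 likewise called 0 genes, with 584 and 106 at an unadjusted p under 0.05. Groups did not overlap in 1373 genes higher (20.2%) and 1242 lower (18.3%) in treated mice, and the genes below are described against these shares. The mice are separate animals, and the test rests on the spread within 2 pairs of them. Fitting the genes without a filter on low counts called 8, among them Ltb, H2-D1, Klf2, Ccl5, Gria3, Bcl2 and Ikzf2, fitting without the memory class cells called Gria3 and Klf2, and leaving out 1 mouse called 16 (treated mouse 1), 6 (treated mouse 2), 3 (untreated mouse 1) and 2 (untreated mouse 2).

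The genes with the smallest p-values higher in treated mice included Ltb, H2-D1, Nfkbia and Klf2. Ltb, a membrane ligand of the tumour necrosis factor family, had 563 and 620 CPM in treated mice, against 386 and 437 CPM in untreated mice (0.52 ± 0.12, edgeR adjusted p = 0.0784). H2-D1, a classical MHC class I heavy chain, had 1066 and 1069 CPM in treated mice, against 754 and 806 CPM in untreated mice (0.45 ± 0.10, edgeR adjusted p = 0.0784). Both pairs were apart without overlap, and neither passed the threshold unless the filter on low counts was dropped (edgeR adjusted p = 0.038 and 0.046). H2-D1 has close paralogs, so its reads are uncertain.

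Nfkbia, the inhibitor of NF-kappaB, had 273 and 293 CPM in treated mice, against 194 and 192 CPM in untreated mice (0.56 ± 0.15, edgeR adjusted p = 0.30). Klf2 had 1150 and 822 CPM in treated mice, against 767 and 651 CPM in untreated mice (0.47 ± 0.12, edgeR adjusted p = 0.34). The difference in Klf2 was 0.21 without treated mouse 1 and 0.70 without treated mouse 2. The polyubiquitin gene Ubb (0.35 ± 0.10), the ribosomal protein gene Rpl13 (0.25 ± 0.07), Ssbp4 (1.07 ± 0.31) and the endoplasmic reticulum stress gene Manf (0.89 ± 0.26) were also among the first 10, none with an edgeR adjusted p under 0.34.

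Among genes lower in treated mice, Gria3, a glutamate receptor subunit, had 52.9 and 34.8 CPM in treated mice, against 83.2 and 92.7 CPM in untreated mice (-1.06 ± 0.24, edgeR adjusted p = 0.0784). Bcl2, which protects lymphocytes from apoptosis, had 580 and 628 CPM in treated mice, against 863 and 810 CPM in untreated mice (-0.47 ± 0.11, edgeR adjusted p = 0.0806). These, too, passed only in other fits, both with no filter on low counts (edgeR adjusted p = 0.032 and 0.046). Gria3 also passed without memory class cells (edgeR adjusted p = 0.017). With equal cells per mouse Gria3 shrank to -0.63 (edgeR adjusted p = 0.65). The difference in Gria3 was -1.35 without treated mouse 1 and -0.74 without treated mouse 2. Ikzf2, which encodes the factor Helios, had 31.4 and 19.3 CPM in treated mice, against 33.3 and 84.9 CPM in untreated mice, and its difference of -1.33 ± 0.35 shrank to -0.44 without untreated mouse 2. It passed the edgeR threshold without treated mouse 1 (adjusted p = 0.0013) or untreated mouse 1 (adjusted p = 0.00034). Dip2c (-1.35 ± 0.37), the phosphate exporter gene Xpr1 (-0.71 ± 0.20), the inositol kinase gene Itpkb (-0.54 ± 0.16), the kinase gene Vrk2 (-0.76 ± 0.23), the zinc transporter gene Slc30a7 (-0.86 ± 0.26) and the chromatin remodelling genes Bicra (-0.91 ± 0.28) and Arid1b (-0.54 ± 0.17) followed.

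**Figure D4:**
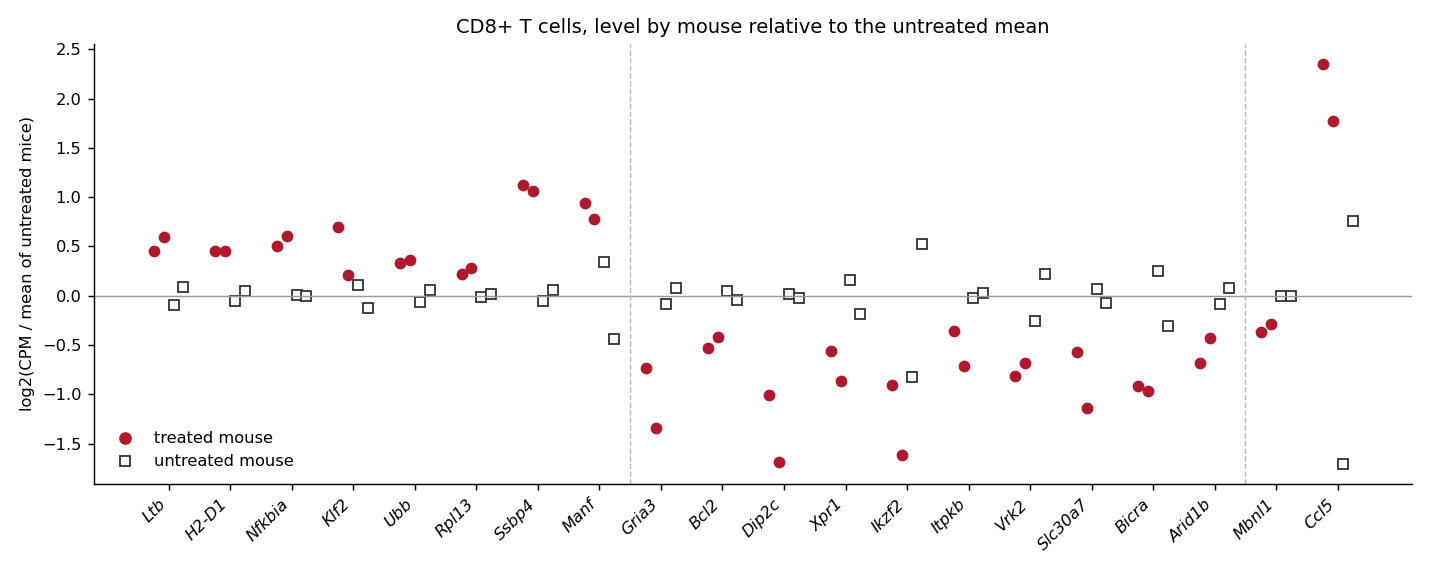
Level of each gene in CD8+ T cells as log2 of CPM over the mean of the untreated mice, 1 point per mouse (treated filled, untreated open), for genes of smallest p higher on the left, lower in the middle, and Mbnl1 and Ccl5 on the right. H2-D1 had 1066 and 1069 CPM in treated mice, against 754 and 806 CPM in untreated mice, and no gene passed the adjusted threshold.

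Gene lists were read by counts and medians beside those of all 6798 genes, of which 3441 were higher and 3357 lower in treated mice with a median of 0.01. Without overlap, 20.2% of all genes were higher and 18.3% lower. Of 20 genes of MHC class I and peptide loading, 15 were higher and 5 lower, with a median of 0.15. H2-D1, H2-T23, Psme1 and Pdia3 had an unadjusted p under 0.05, none passed after adjustment, and 8 were higher and 1 lower without overlap. H2-T23, the non-classical ligand of the CD94 receptors, had 206 and 169 CPM in treated mice, against 121 and 149 CPM in untreated mice (0.45 ± 0.16). B2m, the light chain of every class I molecule, overlapped between the groups (0.13 ± 0.10).

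Of 26 genes of the T cell receptor and its signalling, 12 were higher and 14 lower, with a median of -0.03. Without overlap, 9 were higher and 7 lower. The 4 with an unadjusted p under 0.05 were all lower, and none passed after adjustment. They were Cd247, the zeta chain (449 and 426 CPM in treated mice, against 563 and 510 CPM in untreated mice), the adaptor gene Lcp2, the costimulatory receptor gene Cd28 and Themis, a factor of T cell selection. The 5 CD8+ T cell markers were all higher without overlap, with a median of 0.15 and none at an unadjusted p under 0.05. Over all genes, 20.2% were higher without overlap. Of 23 lineage factors tested among 29, 9 were higher and 14 lower, with a median of -0.12. Klf2 was the 1 higher and Satb1, Bach2, Foxo1, Ikzf1, Zeb1 and Ikzf2 the 6 lower at an unadjusted p under 0.05. Zeb1, a repressor needed for memory T cells, had 333 and 395 CPM in treated mice, against 431 and 517 CPM in untreated mice (-0.38 ± 0.13).

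Naive genes were split, with 12 higher and 9 lower of 21 tested among 22 (median 0.06), and Klf2 and Npc2 were among those higher and Satb1 and Bach2 lower at an unadjusted p under 0.05. Memory and cytotoxic genes were tested in 15 of 36 members, with 12 higher and 3 lower and a median of 0.10. Klrd1 (0.45 ± 0.14) and Crip1 (0.37 ± 0.11) had an unadjusted p under 0.05, and none passed after adjustment. Crip1, a small LIM protein, had 737 and 694 CPM in treated mice, against 601 and 509 CPM in untreated mice. The other 21 members had too few UMIs to be tested.

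The remaining lists showed few genes at an unadjusted p under 0.05 and none after adjustment. Of 34 interferon response genes tested among 47, 18 were higher and 16 lower (median 0.10), with Ifit2, Irf7 and Ly6a higher and Trim30a lower. Of 18 immediate early genes among 25, 9 were higher and 9 lower (median 0.04), with Jund, Ier2 and Nfkbia higher. Of 20 oxidative stress genes among 26, 14 were higher and 6 lower (median 0.08), with Gpx1, Gpx4 and Fth1 higher. These 3 encode glutathione peroxidases and the ferritin heavy chain, and Fth1 had 700 and 734 CPM in treated mice, against 530 and 573 CPM in untreated mice. Of 10 glucocorticoid response genes among 14, 8 were higher and 2 lower (median 0.24), with Tsc22d3, which encodes GILZ, higher. Of 10 genes of granule secretion among 18, 8 were higher and 2 lower (median 0.13), with the vesicle GTPase gene Rab27a higher. Cytokine receptors (6 higher and 10 lower of 16 among 19) had no gene at an unadjusted p under 0.05, and trafficking genes (9 and 9 of 18 among 21) included Klf2.

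Targets of miRNAs that were measured in treated skin, not in blood, formed further lists. The mature sequences of both miRNAs are given from RefSeq (GRCm38.p6), with the seed, bases 2 to 8, in capitals.
mmu-miR-223-3p, chrX:96242884-96242905, plus strand: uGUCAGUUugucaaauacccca
mmu-miR-451a, chr11:78073186-78073207, plus strand: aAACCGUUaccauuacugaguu
The study chose its targets on these samples, so their direction is not independent evidence. Of 11 listed miR-223-3p targets tested among 12, 4 were higher and 7 lower in treated mice, with a median of -0.12. Mbnl1, a splicing regulator, had 927 and 977 CPM in treated mice, against 1194 and 1193 CPM in untreated mice (-0.32 ± 0.10, edgeR adjusted p = 0.34). Macf1, Tnik and Phf20l1 were the others with an unadjusted p under 0.05, all lower, and none passed after adjustment. All 3 listed miR-451a targets were tested, 1 higher and 2 lower, with none at an unadjusted p under 0.05.

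Ccl5 was the only gene whose treatment effect was called different between CD8+ and CD4+ T cells, and a few cells held most of its RNA. In CD8+ T cells it had 151 and 101 CPM in treated mice, against 9.08 and 50.3 CPM in untreated mice (1.93 ± 0.72, edgeR adjusted p = 0.63). The UMIs numbered 106 and 105 in treated mice, against 6 and 45 in untreated mice, in 12 and 20 cells against 5 and 20 cells. The richest cell alone held 92 and 45 of them in treated mice, against 2 and 11 in untreated mice. In treated mouse 2 the richest cell belonged to cluster 11, whose 5 cells held 60 UMIs. With both left aside, the remaining cells held 14 and 45 UMIs in treated mice, against 4 and 34 in untreated mice. It passed in CD8+ T cells alone when treated mouse 1, untreated mouse 1 or untreated mouse 2 was left out, with differences of 1.64, 1.30 and 3.74. It also passed with no filter on low counts (edgeR adjusted p = 0.00013) and with the robust fit off (edgeR adjusted p = 0.00069). With the robust fit off, restriction to cluster 4 gave 1.49 (edgeR adjusted p = 0.58). Leaving out the richest cell of treated mouse 1 as well gave 0.07 (edgeR adjusted p = 0.98). The richest cells of the untreated mice were kept, so this removal was one-sided and had to lower the difference.

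In CD4+ T cells, Ccl5 had 18 and 8 UMIs in treated mice, against 48 and 9 in untreated mice, of which 1 cell of untreated mouse 1 held 32. The treatment effect in CD8+ minus that in CD4+ T cells was tested in 1 edgeR model over 8735 genes and called Ccl5 alone (0.0114%), at 3.36 ± 0.43 on the log2 scale (edgeR adjusted p = 2.73e-11). The call was kept in cluster 4 alone (2.98, edgeR adjusted p = 1.54e-07), with the robust fit off (3.36) and without untreated mouse 2 (5.96). It was lost at a like difference without a filter on low counts (3.34), with RLE scaling (3.36), with DESeq2 (3.56, adjusted p = 1.0) and on leaving out treated mouse 1 (3.52, edgeR adjusted p = 0.999) or treated mouse 2 (3.28, edgeR adjusted p = 0.997). Without untreated mouse 1 the difference was 1.11 (edgeR adjusted p = 0.88).

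**Figure D5:**
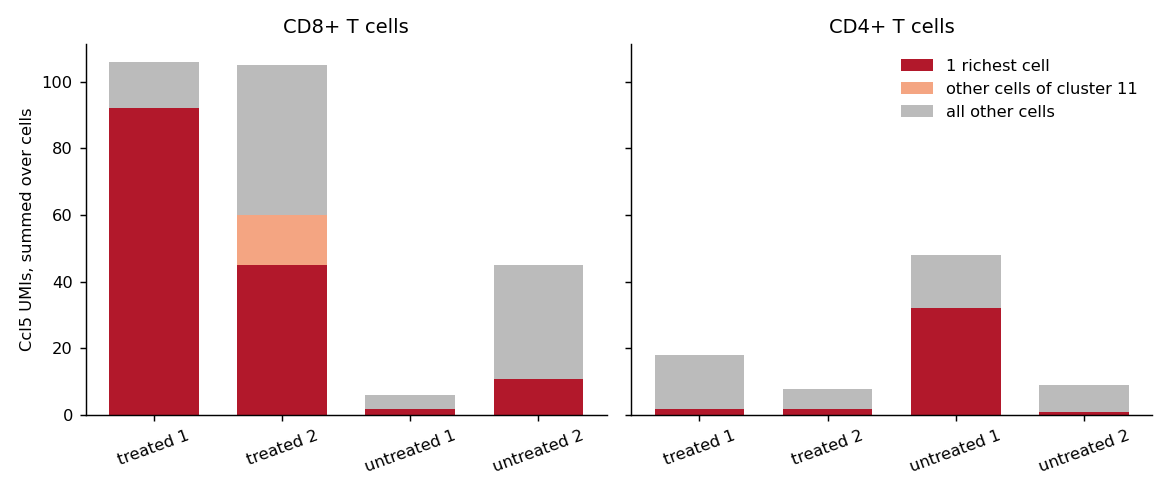
Ccl5 UMIs summed over CD8+ T cells (left) and CD4+ T cells (right) by mouse, stacked by the 1 richest cell, the other cells of cluster 11 and all other cells. In CD8+ T cells the richest cell held 92 of 106 and 45 of 105 UMIs in treated mice, and in CD4+ T cells it held 32 of 48 UMIs in untreated mouse 1.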

How the data were processed

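PBMC of 4 mice, 2 treated with NTP and 2 untreated, were sequenced by the authors with 10x 3' chemistry. Cell Ranger 7.1.0, Seurat 4.3.0 and the build mm10 are listed in the submitters' processing notes. The authors deposited raw UMI counts per gene and cell (15093 genes, 5794 cells) and a table of cell types, clusters and the percent of mitochondrial counts, deposited with each cell. Their methods name SoupX for ambient RNA, a filter of 200 to 2500 genes and at most 10% mitochondrial counts, and DoubletFinder, but no source used here says whether the deposited counts were taken before or after SoupX. Recomputed UMIs and genes per cell equalled those deposited in all 5794 cells. The percent of mitochondrial counts did not match, with a median in CD8+ T cells of 5.23 recomputed and 4.90 deposited. The cause was not tested. No doublet caller was run again.

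Cells were taken by the deposited annotation. Counts were summed per mouse and type, TMM-scaled, filtered on low counts by edgeR's own rule, and fitted with edgeR 4.0.16 (quasi-likelihood, robust, R 4.3.3), with Benjamini-Hochberg adjustment. limma 3.58.1 and DESeq2 1.42.0 gave alternatives. Each gene's treatment effect was compared between CD8+ and CD4+ T cells in 1 model. The summed libraries held 661598 to 1110933 UMIs, and the common biological coefficient of variation was 0.0909. The steps were also run on simulated sums per mouse with the same spread for every gene. Those sums hold no single cells, so they cannot speak to RNA held by a few cells, as for Ccl5. Identity used log2(CPM + 1) with no test. Single values were compared by exact permutation tests, for which 2 against 2 mice cannot go below p = 0.33.

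Genes named were the 20 largest and 10 smallest differences from CD4+ T cells, the 10 and 10 from annotated NK cells, the 10 smallest p-values per direction among genes whose groups did not overlap, list members with the highest levels or an unadjusted p under 0.05, Mbnl1 and Ccl5. A few further genes past the identity rule were named after their values were seen. Some genes that met these rules are not reported here. Members and lists were chosen with earlier results of these data known.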

Additional observations from a re-analysis of the deposited data

Results flagged for a closer look

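The difference in treatment effect on Ccl5 between CD8+ and CD4+ T cells, 3.36 on the log2 scale, stood out because the test of the difference itself passed (edgeR adjusted p = 2.73e-11). In CD8+ T cells the richest cell held 92 of 106 and 45 of 105 UMIs in treated mice, against 2 of 6 and 11 of 45 UMIs in untreated mice. In CD4+ T cells 1 cell of untreated mouse 1 held 32 of its 48 UMIs. Without untreated mouse 1 the difference was 1.11 (edgeR adjusted p = 0.88). In cluster 4 alone, which leaves out the richest cell of treated mouse 2, it was 2.98 (edgeR adjusted p = 1.54e-07). The part of the richest cells of treated mouse 1 and of the CD4+ T cells was not tested.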

How the results depend on the processing

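No paired analysis of treated against untreated mice was possible because they are separate animals. For treatment, edgeR called 0 genes, against 8 with no filter, 2 without memory class cells, 2 with the robust fit off, and 2 to 16 on leaving out each mouse (16 without treated mouse 1). The test of CD8+ against CD4+ effects called 1 gene, against 0 with no filter, 0 with RLE scaling, 0 with DESeq2, and 0 to 3 on leaving out each mouse. With a minimum of 20 CPM, 77 genes were higher and 59 lower than in CD4+ T cells. Against annotated NK cells, 11 genes were higher with RLE scaling, 62 higher and 16 lower with a minimum of 50 CPM, and 25 to 35 higher on leaving out each mouse. The mean memory class share of 22.1% became 77.9% with at least 1 gene, 4.21% with at least 3, 9.05% at 3000 UMIs and 5.57% without Klrd1. The difference in the share of CD8+ T cells turned to 0.0896 points among T cells and ran over -3.74 to 0.64 points on leaving out each mouse. The robust fit and the Ccl5 settings were chosen after seeing the data. The cause of these changes was not tested. Depth limits genes under the filter, granzymes among them.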
